A study of Homo sapiens with 6 samples.

Results

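The Krüppel-like factor (KLF) genes studied were KLF2, KLF3, KLF4, KLF5, KLF6, KLF7, KLF9, KLF10, KLF11 and KLF13. They were chosen by name, with earlier results of these data known, as 10 of the 38900 Ensembl gene IDs in the deposited table, and each symbol matched 1 ID. RNA came from hTERT RPE1, an established human retinal pigment epithelial line immortalised with telomerase, in 6 polyA RNA sequencing libraries. All cultures were held for 5 days at 100% confluency, which takes the cells out of the cell cycle, and then spent 6 hours in fresh medium. In 3 libraries that medium contained 0.1% DMSO, the solvent, and in the other 3 it contained 100 nM combretastatin A4 (CA4), a tubulin-binding compound that depolymerizes microtubules. The question is how transcript levels differ once microtubules are lost in cells that do not divide. Fresh medium was given to both groups and a culture without it is not part of the comparison. The labels do not say that the libraries came from separate cultures, so p-values measure the spread between these libraries, which may be technical.

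KLF proteins are transcription factors that bind GC-rich and CACCC-containing DNA through zinc fingers at their C-terminal end, a domain they share with the SP factors. Their N-terminal parts differ: some recruit acetyltransferases and mainly activate, as KLF2, KLF4, KLF5, KLF6 and KLF7 do, KLF3 represses through CtBP, and KLF9, KLF10, KLF11 and KLF13 recruit the Sin3 corepressor. Many KLF genes respond quickly to serum, stress, shear or hormones, and their mRNAs are often short-lived.

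DNA in front of a RefSeq transcription start is shown for KLF7, the member that rose with CA4, and for KLF6, its closest relative here. It is also shown for KLF11, the member with the lowest fold change, and for KLF2, whose induction by MEF2 factors in endothelium is well known. Windows are RefSeq windows of 300 bases (250 before and 50 after a transcription start, GRCh38.p14). Each sequence is the stretch before the first annotated exon base inside its window, written 5′ to 3′ on the strand of the gene. The KLF11 stretch lies inside the annotated gene, which starts at chr2:10042849, so it is not the DNA in front of that gene. Capitals mark matches to a serum response factor (SRF) CArG box, a MEF2 site, an EGR site, a cyclic AMP response element (CRE), an E box or a CCAAT box, a CCAAT box on the opposite strand reading ATTGG. The KLF7 stretch is chr2:207167268-207167496 on the minus strand, the KLF6 stretch chr10:3785282-3785459 on the minus strand, the KLF11 stretch chr2:10043971-10044174 on the plus strand and the KLF2 stretch chr19:16324576-16324816 on the plus strand.
KLF7: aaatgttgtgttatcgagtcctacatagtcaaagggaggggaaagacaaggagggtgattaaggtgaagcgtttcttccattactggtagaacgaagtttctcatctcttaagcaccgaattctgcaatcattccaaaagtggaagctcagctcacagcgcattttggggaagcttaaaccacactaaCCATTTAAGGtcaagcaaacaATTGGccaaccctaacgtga
KLF6: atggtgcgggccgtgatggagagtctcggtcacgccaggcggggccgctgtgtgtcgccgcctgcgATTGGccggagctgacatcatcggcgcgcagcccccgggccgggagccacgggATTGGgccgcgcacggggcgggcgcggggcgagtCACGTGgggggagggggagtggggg
KLF11: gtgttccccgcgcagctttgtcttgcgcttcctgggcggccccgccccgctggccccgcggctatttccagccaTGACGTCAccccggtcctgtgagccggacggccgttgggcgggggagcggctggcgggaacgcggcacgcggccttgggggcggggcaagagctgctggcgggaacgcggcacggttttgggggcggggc
KLF2: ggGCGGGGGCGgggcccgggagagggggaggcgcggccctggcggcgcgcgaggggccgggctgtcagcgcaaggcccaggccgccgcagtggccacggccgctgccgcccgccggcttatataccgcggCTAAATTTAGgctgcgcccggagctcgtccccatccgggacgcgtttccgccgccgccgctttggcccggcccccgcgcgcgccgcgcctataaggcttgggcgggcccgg

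These 4 stretches differ in base composition and in the motifs they hold. The KLF7 window, at the most upstream of its 4 RefSeq starts, was 42.7% G and C and held a CArG match at positions -62 to -53, counting from 0 at the first transcribed base, and a CCAAT box at -41 to -37. The KLF6 window was 70.7% G and C, with CCAAT boxes at -184 to -180 and -131 to -127, an E box at -97 to -92 and, outside the printed stretch, an EGR site at -65 to -57. The KLF11 window, at the downstream of its 2 starts, was 75.3% G and C and held a CRE at -176 to -169 among 7 GC boxes. The KLF2 window, 80.7% G and C, held a MEF2 site at -120 to -111, 6 GC boxes and 2 EGR sites, each EGR site overlapping a GC box.

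RefSeq windows were matched for 8 of the 10 members, in 13 windows, and not for KLF3 and KLF10. Both strands were searched. The motifs that KLF and SP factors bind were a GC box, written GGGCGG, and a CACCC box, searched as the letters CCACCC. Basal elements were the CCAAT box and a TATA box of the form TATAAA. For regulated factors the search used TGACGTCA for the CRE, TGANTCA for an AP-1 site, GCGNGGGCG for an EGR site and CACGTG for an E box, with the MEF2, CArG and NF-kB sites given here by name. Of the 13 member windows, 1 held a CArG match (1.29% of all 35116 windows), 1 a MEF2 site (0.572%) and 1 a CRE (1.85%). An E box was in 4 member windows (7.26% of all), an EGR site in 3 (9.43%), a GC box in 8 (45.0%), CCAAT in 6 (34.6%), a CACCC box in 2 (34.3%) and a TATA box in 1 (11.5%). The AP-1 and NF-kB sites, in 7.71% and 5.91% of all windows, were in 0 of the 13. Windows of the same gene are not independent, and these counts were not tested. A match describes the letters only, and which KLF7 or KLF11 start these cells use was not tested.

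**Figure D1:**
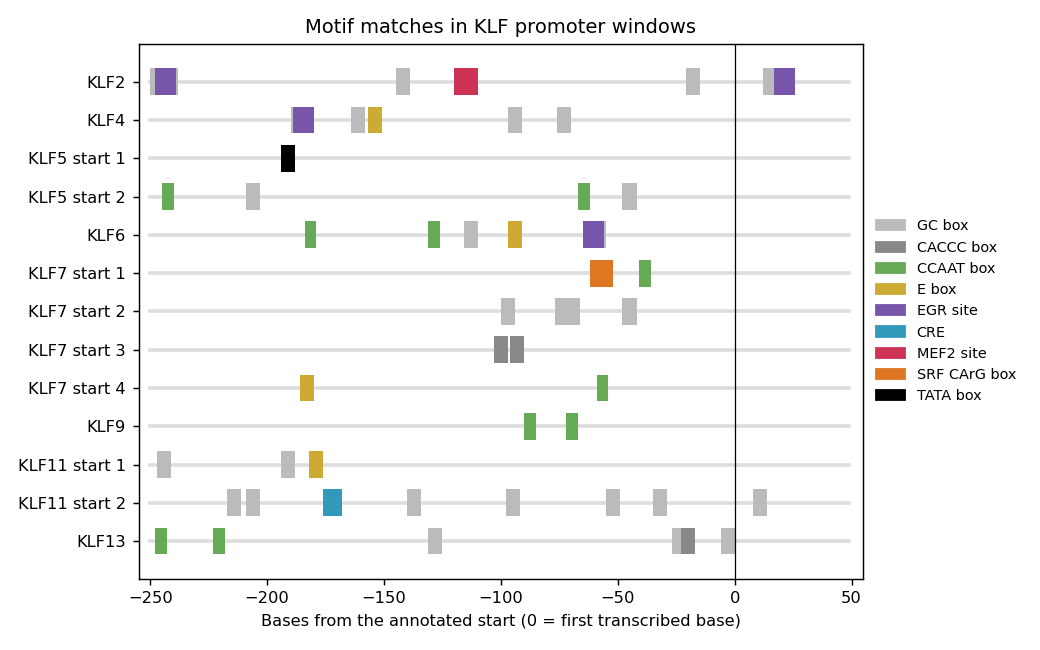
Motif matches in the 13 RefSeq promoter windows of 8 KLF genes, with distance in bases from the annotated start on the x axis and 1 row per start, numbered from the most upstream. Coloured blocks are matches on either strand; the CArG block lies only in the first KLF7 row, the MEF2 block only in the KLF2 row and the CRE block only in the second KLF11 row.

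The libraries held 19524936 to 22538004 reads. Values are normalized counts, the authors' reads per gene after division by a factor of each library, and the 13928 genes that averaged 10 or more over the libraries were tested. With limma and Benjamini-Hochberg adjustment over all of them, 688 genes passed an adjusted p of 0.05, 413 higher and 275 lower in CA4, which is 60.0% higher; with every library scaled to the same total, 279 were higher and 523 lower, or 34.8% higher. At equal totals the median log2 fold change over all genes was -0.11, against -0.0082 otherwise. The epithelial keratins KRT8 and KRT18 were abundant in every library, at 14118 to 16502 and 8393 to 14919 normalized counts, and KRT7 lay between 827 and 1120. The other 3 of the 6 epithelial markers were low: KRT19 at 0 to 62.6, CDH1 at 0.935 to 32.3 and EPCAM at no more than 4.46, with 0 in 4 libraries. Of 11 markers of mature pigment epithelium, DCT and TTR were listed at 0 throughout, RLBP1 and TYR stayed under 6 normalized counts, and RPE65 lay between 13.5 and 40.8. OTX2, a factor of that lineage, fell by 1.11 on the log2 scale (adjusted p = 0.0158; not called without a variance trend, at 0.0573, or without DMSO replicate 2 or 3 or CA4 replicate 1 or 3, adjusted p up to 0.0816). MITF, the most abundant of the 11, held 620, 1085 and 951 normalized counts in DMSO and 322, 647 and 402 in CA4 and did not pass (-0.98, adjusted p = 0.100). Of the 11, 6 were tested, with fold changes positive for 2 and negative for 4 and a median of -0.36, and limma called 1, OTX2. The summed level of the 11 markers was 1145 to 1850 in DMSO and 650 to 1055 in CA4, and its part in the KLF results was not tested. Of 8 fibroblast markers, all tested, 7 had negative fold changes, with a median of -0.33, and PDGFRA fell by 1.28 (adjusted p = 0.0147; not called without DMSO replicate 2 or 3 or CA4 replicate 1 or 3, adjusted p up to 0.0724). Their summed level was 49175 to 80407 normalized counts in DMSO and 37308 to 69437 in CA4, and its part in the KLF results was not tested either. Leukocyte markers summed to 19.6 to 21.8 in DMSO and 26.9 to 41.6 in CA4, with 3 of 6 at 0 throughout, and LYZ, the 1 tested, had 0.69 (adjusted p = 0.266).

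All 10 KLF members passed the filter on low values. KLF7 rose with CA4, and it was the only member to pass, so 1 of 10 members was called, against 4.94% of all genes tested; 1 of 10 was higher, against 2.97%, and 0 of 10 lower, against 1.97%. With 10 genes, such counts do not set the family apart from other genes. The unadjusted limma p was under 0.05 for 3 members, KLF7, KLF6 and KLF11, against 23% of all genes. edgeR on the recovered reads called 1 member, KLF7 (4.62% of all genes), and DESeq2 called 2, KLF6 and KLF7 (11.6% of all genes); neither called a member lower. Fold changes were positive for 5 members and negative for 5, with a median of -0.017 against -0.0082 for all genes; KLF3 and KLF13 turned negative at equal totals, which gave 3 positive and 7 negative. The groups did not overlap for 2 members, KLF7 above and KLF10 below, against 27.7% of all genes. In whole cultures, fewer cells of a type and less RNA per cell cannot be told apart.

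**Figure D2:**
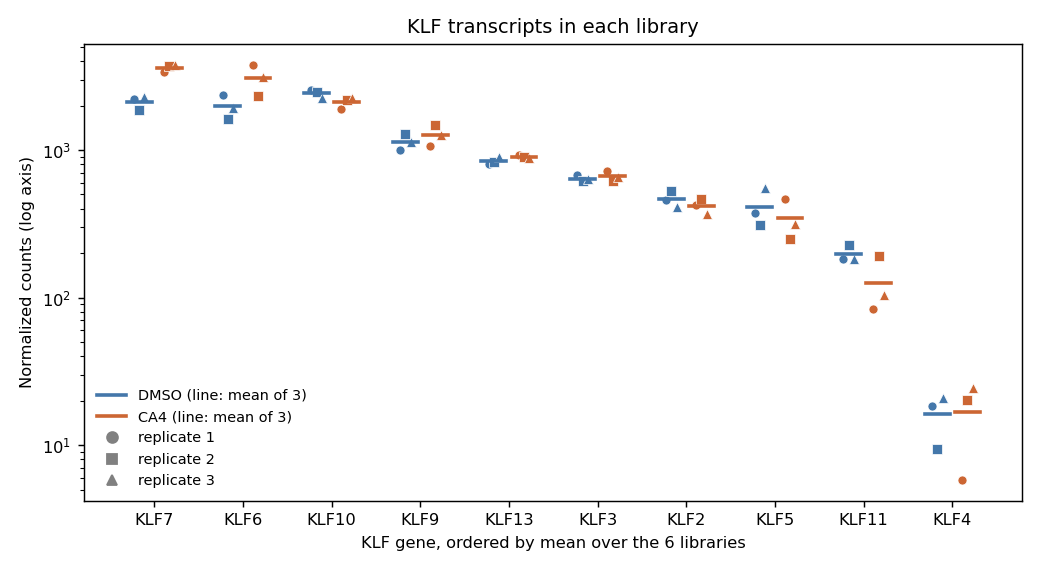
Normalized counts of the 10 KLF genes (log y axis) in each library, ordered along the x axis by mean; points are libraries, their shape gives the replicate number, and lines are the means of 3. The CA4 points of KLF7 (3392 to 3790) lie above all its DMSO points (1873 to 2284), and KLF4 lies below 25 in all 6 libraries.

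KLF7 (ENSG00000118263, GRCh38 chr2:207074137-207167267, minus strand) encodes an activator known from neurons, where it supports axon growth, and it can activate CDKN1A. Its transcript was read at 2213, 1873 and 2284 normalized counts in the DMSO libraries, in the order of their replicate numbers, and at 3392, 3699 and 3790 in the CA4 libraries, an order kept for all genes below. The groups were far apart: the lowest CA4 library was above the highest DMSO library, and libraries of a group lay close together. The means were 2123 ± 220 and 3627 ± 208 (SD, n = 3 libraries each). That is a log2 fold change of 0.78 (SE 0.10, 95% interval 0.54 to 1.01), or 1.71-fold, with an adjusted p of 0.0115 by limma and rank 87 of the 13928 genes by p. Leaving out each library in turn gave log2 fold changes between 0.69 and 0.83 with adjusted p between 0.0145 and 0.0492. Without a mean trend in limma's variance prior the same fold change had an adjusted p of 0.0571, and no member was then called.

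KLF6 (ENSG00000067082, GRCh38 chr10:3775996-3785281, minus strand) is the nearest relative of KLF7, an early gene of tissue injury that activates genes of the TGF-beta pathway and CDKN1A. DMSO libraries held 2379, 1618 and 1944 normalized counts and CA4 libraries 3763, 2334 and 3150. The groups overlapped, because CA4 replicate 2 was a little below DMSO replicate 1, while in each group replicate 1 was highest and replicate 2 lowest. From 1980 ± 382 to 3082 ± 717 (SD, n = 3 each), the log2 fold change was 0.63 (SE 0.20, 95% interval 0.16 to 1.09) and did not pass (adjusted p = 0.114). DESeq2 on the recovered reads gave an adjusted p of 0.0189 for a log2 fold change of 0.64, and edgeR one of 0.113. In limma with the replicate number as a block, KLF6 passed (adjusted p = 0.00275). Without CA4 replicate 2, the low library, the limma estimate was 0.82 with an adjusted p of 0.0618, and without CA4 replicate 1 it was 0.47 with 0.273.

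KLF2, KLF4 and KLF5, the activators best known from endothelium, pluripotent cells and proliferating epithelium, did not pass. KLF2 (ENSG00000127528, GRCh38 chr19:16324817-16327874, plus strand), which shear stress induces in vessels, held 457, 528 and 409 normalized counts in DMSO and 426, 468 and 367 in CA4. The groups interleaved, and in both replicate 2 was highest and replicate 3 lowest. Its log2 fold change was -0.14 (SE 0.14, 95% interval -0.48 to 0.19, adjusted p = 0.60), and it moved to -0.048 or -0.050 when DMSO replicate 2 or CA4 replicate 3 was left out, and to -0.23 or -0.22 when DMSO replicate 3 or CA4 replicate 2 was.

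KLF5 (ENSG00000102554, GRCh38 chr13:73054976-73077542, plus strand) varied more between libraries of a group: 376, 312 and 550 normalized counts in DMSO and 469, 248 and 318 in CA4. The highest DMSO library was replicate 3 and the highest CA4 library was replicate 1, and the groups overlapped over most of their range. The log2 fold change was -0.27 (SE 0.28, 95% interval -0.92 to 0.38, adjusted p = 0.619). Leaving out DMSO replicate 3 gave -0.040 and leaving out CA4 replicate 2 gave -0.055, whereas the fits lacking DMSO replicate 2 or CA4 replicate 1 gave -0.45 and -0.51. KLF4 (ENSG00000136826, GRCh38 chr9:107484852-107490482, minus strand), one of the reprogramming factors, was close to the filter, with 18.3, 9.35 and 20.9 normalized counts in DMSO and 5.80, 20.2 and 24.5 in CA4. These came from 19, 10 and 22 reads and from 6, 18 and 22 reads, so that counting error alone is large. The lowest and the highest library were both CA4 libraries. The KLF4 log2 fold change of -0.084, which edgeR gave as 0.048, had a 95% interval of -1.51 to 1.34, and changes up to about that size were not detectable in these libraries.

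Endothelial markers, whose cells are known for high KLF2 and KLF4, were detected in every library, from 20.6 normalized counts for CLDN5 to 1732 for VWF. None of the 7 tested genes was called by limma, edgeR or DESeq2, and 1 had an unadjusted limma p under 0.05, against 23% of all genes. Their median log2 fold change was 0.64. Their summed level was 2002, 1768 and 1358 normalized counts in DMSO and 2259, 1781 and 3979 in CA4, so that CA4 replicate 3 stood apart. VWF had a log2 fold change of 0.65 (adjusted p = 0.287; 0.25 without CA4 replicate 3), and PECAM1, an adhesion molecule of endothelium, 0.74 (0.215; 0.35 without that library). In that library KLF2, at 367, was at its lowest and KLF4, at 24.5, at its highest among the 6. The part of those markers in the KLF2 and KLF4 levels was not tested.

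The Sin3-binding members fall into pairs of close relatives, KLF9 with KLF13 and KLF10 with KLF11. KLF10 (ENSG00000155090) is an early TGF-beta response gene. It was read at 2572, 2458 and 2271 normalized counts in DMSO and 1899, 2190 and 2258 in CA4. All CA4 libraries were below all DMSO libraries, but CA4 replicate 3 was only just below DMSO replicate 3. The means of 2434 ± 152 and 2116 ± 191 (SD, n = 3 each) gave a log2 fold change of -0.20 (SE 0.096, 95% interval -0.43 to 0.02), which did not pass (adjusted p = 0.260). Without CA4 replicate 1 the estimate was -0.13.

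KLF11 (ENSG00000172059, GRCh38 chr2:10042849-10054836, plus strand), also an early TGF-beta response gene and a regulator of insulin and monoamine oxidase genes, held 183, 227 and 183 normalized counts in DMSO and 83.1, 192 and 105 in CA4. CA4 replicates 1 and 3 were well below every DMSO library, and CA4 replicate 2 was among them. The log2 fold change was the lowest of the 10, at -0.72 (SE 0.30, 95% interval -1.43 to -0.017), and did not pass (adjusted p = 0.209). Without CA4 replicate 2 it was -1.07, with an adjusted p of 0.05001, just above the threshold, and without CA4 replicate 1 it was -0.47 with 0.453. In GENCODE 29, 9.07% of the KLF11 exon bases overlap an antisense gene, AC104794.4, which is not analysed here; whether reads were assigned by strand is not given in the sources used here, so a share of the KLF11 count may belong to it.

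KLF9 (ENSG00000119138, GRCh38 chr9:70384597-70414624, minus strand), which glucocorticoid and thyroid hormone induce, held 1008, 1286 and 1128 normalized counts in DMSO and 1073, 1486 and 1263 in CA4. The ranges overlapped, and in both groups replicate 1 was lowest and replicate 2 highest. Its log2 fold change was 0.15 (SE 0.14, 95% interval -0.18 to 0.49, adjusted p = 0.577), and it moved to 0.036 or 0.068 when CA4 replicate 2 or DMSO replicate 1 was left out, and to 0.24 or 0.27 when DMSO replicate 2 or CA4 replicate 1 was. KLF13 (ENSG00000169926, GRCh38 chr15:31326855-31435665, plus strand), a regulator of CCL5 in T cells, was among the steadiest members, at 801, 827 and 904 in DMSO and 919, 896 and 884 in CA4. DMSO replicate 3 lay inside the CA4 range. Its log2 fold change of 0.094 (SE 0.090, 95% interval -0.12 to 0.30, adjusted p = 0.581) was -0.0073 at equal totals.

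KLF3 (ENSG00000109787, GRCh38 chr4:38664196-38701042, plus strand), the CtBP-dependent repressor, held 674, 616 and 632 normalized counts in DMSO and 722, 620 and 652 in CA4. Replicate 1 was highest in both groups and the ranges nearly coincided. The log2 fold change of 0.051 (95% interval -0.19 to 0.29, adjusted p = 0.813) was -0.050 at equal totals. An antisense gene, KLF3-AS1, which is not analysed here, overlaps 4.22% of the KLF3 exon bases. The intervals of KLF2, KLF3, KLF9, KLF10 and KLF13 all lay within 0.5 of 0 on the log2 scale, whereas those of KLF4, KLF5 and KLF11 reached beyond -0.9; that these members did not pass does not show that they did not change.

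**Figure D3:**
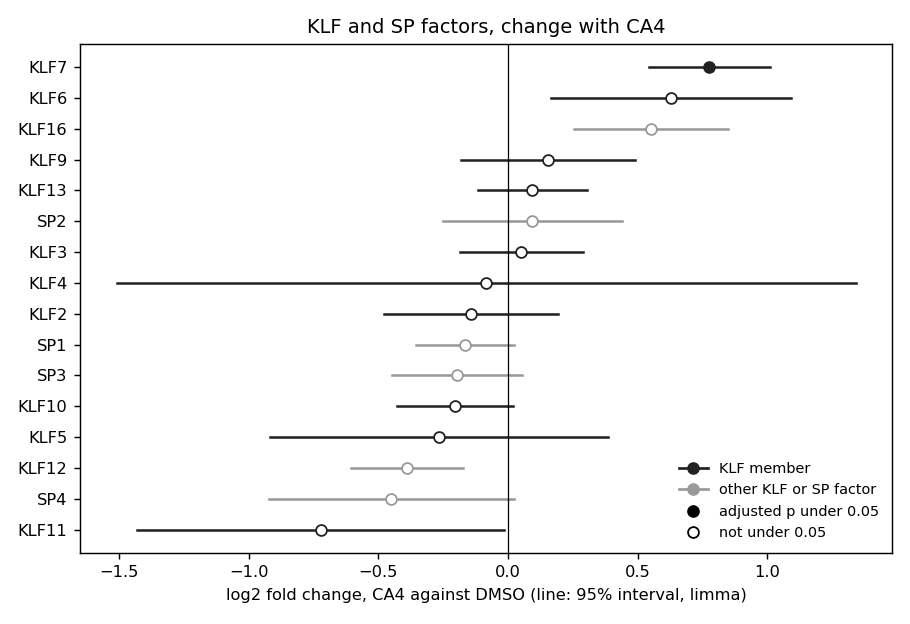
Log2 fold change of CA4 against DMSO (x axis) for the 10 KLF members in black and the 6 tested other KLF and SP genes in grey; lines are 95% intervals from limma and filled points passed an adjusted p of 0.05. KLF7 is the only filled point, at 0.78.

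To compare levels between genes, normalized counts were divided by the kilobases of annotated exon of each gene. In DMSO, KLF10 stood highest, at 608 ± 37.9 per kilobase, followed by KLF6 at 323 ± 62.1 (SD, n = 3 each). KLF2 (230 ± 29.7), KLF7 (229 ± 23.7) and KLF9 (220 ± 27.0) overlapped and could not be ordered. KLF5 (106 ± 31.6) overlapped KLF3 (102 ± 4.75) and KLF13 (89.7 ± 5.70), KLF11 lay below them at 43.1 ± 5.57, and KLF4 was lowest at 4.43 ± 1.66. In CA4 the order at the top was less clear: KLF10 at 529 ± 47.6 and KLF6 at 502 ± 117 overlapped, as did KLF6 and KLF7 at 392 ± 22.5. KLF7 in CA4 no longer overlapped KLF9 (246 ± 39.9) or KLF2 (208 ± 25.2), and KLF4 (4.60 ± 2.68) was again lowest.

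The summed level of the 10 members per kilobase was 2023, 1908 and 1935 in DMSO and 2225, 2150 and 2221 in CA4, without overlap. With the libraries scaled to the same total, an alternative chosen after seeing the data, the DMSO libraries summed to 2116, 1987 and 1979 and those with CA4 to 2176, 2091 and 2105, and the groups overlapped, DMSO replicate 1 lying above CA4 replicates 2 and 3. KLF10 made up 31.1% ± 1.54 of that sum under DMSO and 24.1% ± 2.36 under CA4 (SD over 3 libraries), and its lowest DMSO share, 29.3%, was above its highest CA4 share, 25.4%. The share of KLF7 was 11.7% ± 1.08 in DMSO and 17.8% ± 1.18 in CA4, also without overlap. The KLF11 share did not overlap either, but narrowly: its lowest DMSO share was 1.97% and its highest CA4 share 1.94%, around means of 2.21% and 1.26%. The KLF6 share, 16.4% ± 2.67 and 22.8% ± 4.94, overlapped. KLF9 kept nearly the same mean share, 11.3% and 11.2%, and KLF4 took 0.226% and 0.210%. Shares add to 100%, so a higher share of KLF7 lowers the others, and the shares were not tested. The lengths count every annotated exon, not the transcript forms these cells make.

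**Figure D4:**
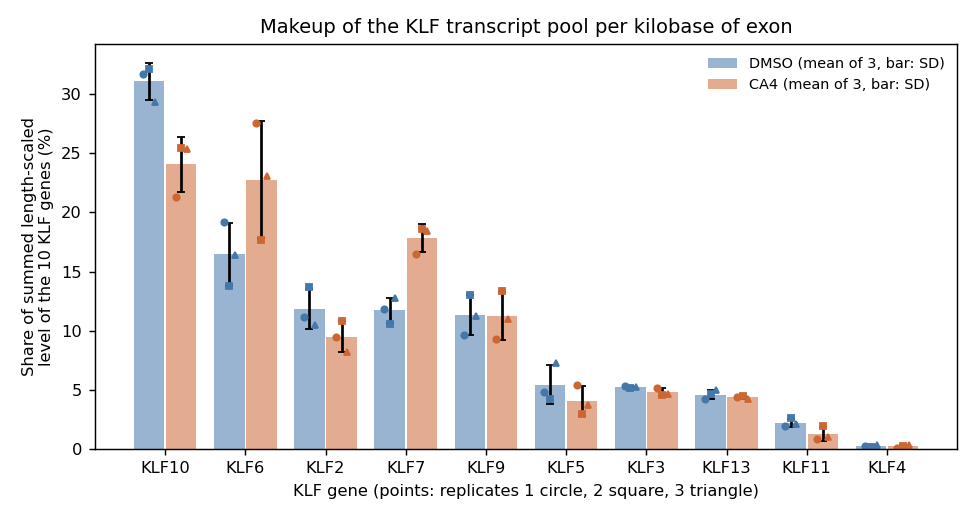
Share of each KLF gene in the summed per-kilobase level of the 10 genes (y axis, percent, from 0), by treatment; bars are means of 3 libraries with SD and points are libraries. The DMSO and CA4 points do not overlap for KLF10 (means 31.1% and 24.1%), KLF7 (11.7% and 17.8%) and, narrowly, KLF11 (2.21% and 1.26%).

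Whether close relatives responded differently was asked with the log2 ratio of their normalized counts within each library, 1 being added to both counts; for KLF2/KLF4, where KLF4 is low, that addition and the library scaling move the ratio. With 3 libraries against 3, the two-sided exact permutation test cannot give a p below 0.1, so no pair could pass. KLF6/KLF7 was -0.11 ± 0.188 in DMSO and -0.26 ± 0.407 in CA4 (SD), a difference of -0.15 (SE 0.26; exact permutation p = 0.6, adjusted over the 4 pairs 0.9). KLF10/KLF11 was 3.62 ± 0.190 and 4.14 ± 0.551, a difference of 0.52 (SE 0.34; exact permutation p = 0.3, adjusted 0.9). In CA4 replicates 1 and 3 that ratio was 4.50 and 4.42, above all DMSO libraries, and in CA4 replicate 2 it was 3.51, inside their range. Without CA4 replicate 2 the KLF10/KLF11 difference was 0.84 and without CA4 replicate 1 it was 0.34. For KLF2/KLF4 the difference was -0.060 (SE 0.77; -0.040 with 0.1 added and -0.11 with 5) and for KLF9/KLF13 0.059 (SE 0.18), each with an exact permutation p of 0.9.

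The rest of the family was measured beside the members. Of 17 other KLF and SP genes, 6 passed the filter, and KLF1, KLF18, SP5, SP7 and SP8 were listed at 0 in every library. None of the 6 was called by limma or edgeR; 2 had an unadjusted limma p under 0.05, and DESeq2 called those same 2, KLF16 higher and KLF12 lower, against shares over all genes of 23% by unadjusted p and, by DESeq2, 6.51% higher and 5.07% lower. KLF16, a Sin3-binding relative of KLF9 and KLF13, held 826, 679 and 674 normalized counts in DMSO and 1212, 994 and 988 in CA4, without overlap (log2 fold change 0.55, adjusted p = 0.0537 by limma and 0.00458 by DESeq2). KLF12, a CtBP-dependent repressor like KLF3, held 901, 906 and 935 in DMSO and 644, 723 and 730 in CA4, also without overlap (-0.39, adjusted p = 0.0572 by limma and 0.0117 by DESeq2). Over 18 alternative fits KLF16 passed in 5, among them limma without DMSO replicate 1 (adjusted p = 0.0325), and KLF12 passed in 4. The SP factors had log2 fold changes of -0.17 for SP1, 0.093 for SP2, -0.20 for SP3 and -0.45 for SP4, with adjusted p from 0.240 to 0.759. Of the 6 genes, 1 had CA4 above without overlap (KLF16) and 3 had CA4 below (KLF12, SP1 and SP4). The shares over all genes were 14.3% and 13.4%.

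Genes that act on KLF genes or proteins were taken as lists, whose counts stand beside 2.97% of all genes higher and 1.97% lower. The ERK5 kinase cascade activates MEF2 factors, which induce KLF2 and KLF4, and class IIa histone deacetylases hold MEF2 back. Of 16 genes of this route, 3 rose and none fell: MEF2D by 0.47 (adjusted p = 0.0361) and the deacetylases HDAC5 by 0.77 (0.0301) and HDAC9 by 1.21 (0.0333). Of the 16, edgeR also called 3 higher and none lower, DESeq2 called 4 higher and 2 lower, and 5 higher and 2 lower had an unadjusted limma p under 0.05. Over all genes the shares higher and lower were 2.8% and 1.82% by edgeR, 6.51% and 5.07% by DESeq2, and 11.9% and 11% by unadjusted limma p. None of the 3 passed without a variance trend. MEF2D passed in 0 of the 6 fits that left out a library (adjusted p up to 0.119), HDAC5 in 2 (up to 0.105) and HDAC9 in 2 (up to 0.130), and MEF2D also did not pass with quantile normalization (adjusted p = 0.0563) or at equal totals (0.0544). KLF2 and KLF4 themselves stood at -0.14 and -0.084. Among 10 corepressors and coactivators of KLF proteins none was called by limma or edgeR, and DESeq2 called SIN3A lower. An unadjusted limma p under 0.05 was found for 2, both lower (11% of all genes): SIN3A (-0.61, adjusted p = 0.0743) and KAT2B (-0.50, 0.149). Among 10 ubiquitin ligases and ligase subunits that act on KLF proteins none was called by limma, edgeR or DESeq2. ITCH alone had an unadjusted limma p under 0.05 (higher, as 11.9% of all genes were), with 0.28 (adjusted p = 0.109), and SMURF1 had 0.32 (0.256). Fits without 1 library gave -0.74 to -0.44 for SIN3A, -0.62 to -0.32 for KAT2B, 0.24 to 0.32 for ITCH and 0.21 to 0.44 for SMURF1.

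Among 25 textbook targets of KLF factors, 4 rose (2.97% of all genes did) and none fell by limma (1.97% did), with a median log2 fold change of 0.14 against -0.0082 for all genes. Of these 25, edgeR called 4 higher and none lower (2.8% and 1.82% of all genes), and DESeq2 called 9 higher and 2 lower (6.51% and 5.07% of all genes). An unadjusted limma p under 0.05 was found for 10 higher and 4 lower (11.9% and 11% of all genes). CDKN1A, the cell cycle inhibitor that KLF4, KLF6 and KLF7 can activate, averaged 4607 ± 227 normalized counts with DMSO and 10209 ± 626 with CA4 (SD over 3 libraries; log2 fold change 1.15, adjusted p = 0.00154). SPHK1, a sphingosine kinase, rose by 1.91 (adjusted p = 0.0213), EDN1, endothelin, by 1.1 (0.0167), and TGFBR1, a TGF-beta receptor that KLF6 can activate, by 0.72 (0.0339). Without a variance trend only 1 of the 4, CDKN1A, passed, and with quantile normalization TGFBR1 did not (adjusted p = 0.0510). These genes have many other regulators, and no binding of a KLF was measured. The 25 were not split into genes that KLF factors activate and genes they repress, so the counts and the median do not measure KLF activity. Of the targets tied to KLF2 in endothelium, THBD (0.56, adjusted p = 0.246), NOS3 (0.98, 0.134) and S1PR1 (-0.021, 0.981) did not pass; these 3 were named after their values were seen.

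Other genes known to respond to the stimuli that induce KLF9, KLF10 and KLF11 were set beside them. Such genes have other regulators, and the lists were not split by the direction in which a stimulus moves a gene. Their counts and medians therefore do not measure the stimuli. Of 9 tested glucocorticoid targets, 3 rose, SGK1 by 1.78 (adjusted p = 0.00404), ERRFI1 by 1.05 (0.0217) and NFKBIA by 0.67 (0.0397), and 1 fell, TSC22D3, by 0.78 (0.0445), beside the KLF9 value of 0.15 and shares of 2.97% and 1.97% over all genes. Of these 4, SGK1 alone passed without a variance trend, NFKBIA did not pass at equal totals (adjusted p = 0.0653), and TSC22D3 did not with quantile normalization (0.0543). Over the 9, fold changes were positive for 6 and negative for 3, with a median of 0.30. Of 11 early TGF-beta genes, ID1 fell by 0.76 (adjusted p = 0.0192) and ID2 fell by 2.10 (0.0275), beside -0.20 for KLF10 and -0.72 for KLF11. Of the 11, limma and edgeR each called none higher and 2 lower, DESeq2 called 1 higher and 2 lower (6.51% and 5.07% of all genes), and 1 higher and 4 lower had an unadjusted limma p under 0.05 (11.9% and 11%). Without a variance trend neither ID1 (adjusted p = 0.0636) nor ID2 (0.0748) passed. Fold changes were positive for 4 of the 11 and negative for 7, with a median of -0.18, and the highest was 0.73 for CCN2 (adjusted p = 0.0991), a gene singled out after its value was seen. Across KLF7 and the 13 called genes of these lists, 14 in all, 3 passed in each of the 6 fits that left out a library: KLF7, CDKN1A and SGK1. The other 11 each lost the call without DMSO replicate 2, without DMSO replicate 3 and without CA4 replicate 3, and some without further libraries, with adjusted p up to 0.148.

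**Figure D5:**
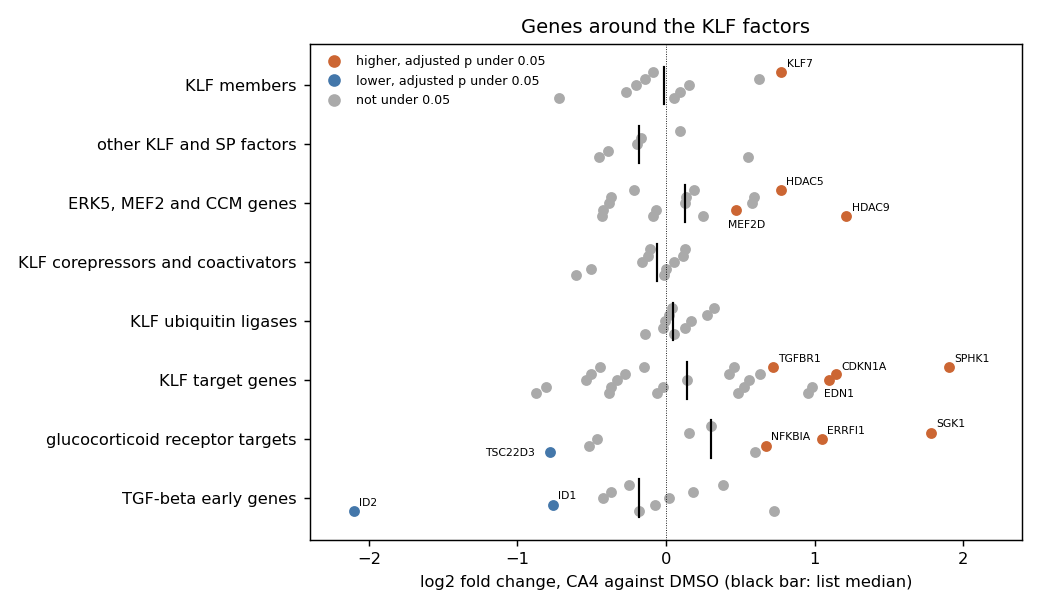
Log2 fold change of CA4 against DMSO (x axis) for each tested gene of 8 lists (rows); points are genes, black bars are list medians, and coloured points passed an adjusted p of 0.05. KLF7 is the coloured point among the members, and the targets hold 4, all to the right of 0.

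Untranslated regions varied among the members. In GENCODE 29 the median 3′ untranslated region of the 10 genes was 2754 bases, against 1153 for 11934 tested protein-coding genes. It held ATTTA, the core of elements that can mark an mRNA for rapid decay, 2.37 times per kilobase at the median, against 1.68. Of the 10 members, 8 had a longer 3′ untranslated region than the median gene and 9 a higher ATTTA density, KLF6 barely so at 1.69, but KLF2 alone was above the upper quartile of 3.23; these differences were not tested. KLF7 had the most, 20 in 7076 bases, and KLF2 the highest density, 3.56 per kilobase, while KLF13 had the lowest, 0.893 per kilobase. Gene length varied widely, from 3058 bases for KLF2 to 108811 for KLF13, with a median of 17278 against 35113. KLF7, at 93131 bases, and KLF13 are the long genes among them, and their fold changes were 0.78 and 0.094.

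The members share little transcript sequence with each other or with other genes. No run of 50 bases was shared between transcripts of different members, and at most 0.341% of such runs of a member, KLF13, occurred in any other gene. KLF7 shared 0.170% of its runs with the pseudogene KLF7P1, which was listed at 0 in every library. Among 8 listed pseudogenes of the members, KLF2P4 alone had any read, with at most 1 in a library.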

How the data were processed

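The analysis covers 6 polyA RNA sequencing libraries, 3 with DMSO and 3 with CA4, grouped and numbered by their titles. The deposited values are a signal: reads per gene that the authors scaled by a factor for the library, called normalized counts. Per the submitters' processing notes, Trim Galore 0.6.6, FastQC 0.12.1, Salmon 1.8.0, STAR 2.7.9a, DESeq2 1.44.0 and build GRCh38 were used; their order, the annotation release and any use of strand are not given in the sources used here. All values of a column (100%) were whole multiples of its smallest unit, within a tolerance of 0.01, so reads were recovered, 19524936 to 22538004 per library; they may be rounded estimates. At this depth 1 read is close to 1 normalized count. Of the 38900 IDs, 17103 had no read.

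The 13928 genes averaging 10 or more normalized counts were fitted on log2(normalized count + 1) with limma 3.58.1 in R 4.3.3, with a variance trend and treatment as the only term. This scale understates the change of genes with low values. Benjamini-Hochberg adjustment of the two-sided p-values ran over all tested genes, with a threshold of 0.05, and 95% intervals and SE are limma's. edgeR 4.0.16 and DESeq2 1.42.0 on the recovered reads, the former calling 643 genes and the latter 1613, other pseudocounts, filters and scalings, a replicate block and fits without each library were alternatives. The scripts were tested on simulated data.

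The members and lists were chosen with earlier results of these data known, so no p was adjusted over a list. Named genes are all members, every tested other KLF or SP gene, and from each other list the genes past the threshold (at most 6), or otherwise the 2 with the smallest adjusted p; 1 gene was left out of the list counts and is not reported here. Coordinates and lengths are from GENCODE 29 and promoter windows from RefSeq, GRCh38.p14; the files give gene IDs only.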

Additional observations from a re-analysis of the deposited data

How the results depend on the processing

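KLF7 passed in 17 of 18 alternative fits, and its log2 fold change stayed between 0.67 and 0.83. Without a variance trend no member passed (0) and 103 genes did. The replicate block gave 2397 genes and 2 members, KLF7 and KLF6 (adjusted p = 0.00275), and DESeq2 gave 1613 genes and the same 2 members; the cause was not tested. The block also called KLF16 (adjusted p = 0.00613), KLF12 (0.0237), SIN3A (0.00823) and SMURF1 (0.0186), and among the 25 KLF targets 11 higher and 4 lower (9.05% and 8.16% of all genes). Replicate numbers were not treated as pairs in the main fit. The deviations of libraries with the same number correlated at 0.202, 0.159 and 0.0588. Among libraries with different numbers, CA4 replicate 3 and DMSO replicate 2 correlated at 0.0741, and every other combination at -0.214 to -0.00126. Whether the numbers mark pairs was not tested. Leaving out 1 library gave 81 to 994 genes, with 100 without DMSO replicate 2, 81 without DMSO replicate 3, 156 without CA4 replicate 1 and 150 without CA4 replicate 3, where fewer libraries were fitted. Directions reversed for members with small estimates. At equal totals the log2 fold change was -0.050 for KLF3, -0.0073 for KLF13, -0.0083 for SP2 and -0.012 for KRT8, and edgeR gave 0.048 for KLF4. Without 1 library it ranged from -0.0098 to 0.099 for KLF3, from -0.45 to 0.51 for KLF4 and from -0.036 to 0.24 for SP2. Likewise the difference within pairs ranged from -0.66 to 0.40 for KLF2/KLF4, from -0.35 to 0.054 for KLF6/KLF7 and from -0.061 to 0.19 for KLF9/KLF13. KLF4 was not fitted at a mean of at least 50, and DESeq2 gave it no adjusted p. Over the 40 named genes, 614 alternative values kept direction and call, 76 lost the call, 17 gained it and 10 reversed. KLF4 had 6 to 22 reads per library, and counting error and spread between libraries were not separated.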
